A study of Mus musculus with 13 samples.

Results

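Levels of 10 messenger RNAs of the endoplasmic reticulum folding machinery were described in C2C12 cells, a mouse myoblast line that fuses into myotubes when serum is lowered. The genes, Hspa5, Hsp90b1, Pdia3, Pdia4, Pdia6, Calr, Canx, Dnajb9, Herpud1 and Xbp1, are 10 of the 23236 gene rows in the table. They were picked by name, with earlier results of these data known. Of the 13 samples of the series, 4 RNA-seq and 9 ChIP-seq, 2 RNA-seq libraries were used, both of poly(A)-selected RNA from cells labelled myoblasts. One is labelled siLinc-Yy1, by the usual reading an siRNA against the long noncoding RNA Linc-Yy1, and the other siNC, by the usual reading a control siRNA. The remaining samples, RNA-seq of GM and DM cells and ChIP-seq, were not analysed here. With 1 library per condition nothing below is checked by a replicate, and each value is that of a library, not of its condition. In bulk RNA, fewer cells that express a gene and less RNA per cell cannot be told apart.

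Secreted and membrane proteins fold inside the endoplasmic reticulum. Hspa5 (BiP), an Hsp70, holds unfolded chains with the help of J-proteins such as Dnajb9, and Hsp90b1 (GRP94) finishes selected clients. Calr and Canx are lectins that hold glycoproteins through their trimmed sugar chains while Pdia3, a disulfide isomerase bound to them, rearranges disulfide bonds. Pdia4 and Pdia6 are further isomerases. Herpud1 serves the ligase complex that sends misfolded proteins to the proteasome. When unfolded chains build up, the sensors Ire1 (Ern1), Atf6 and Perk (Eif2ak3) act through spliced Xbp1, cleaved Atf6 and Atf4. Cleaved Atf6 and spliced Xbp1 bind promoter motifs called ERSE and ERSE-II. Skeletal muscle cells secrete collagen and other matrix proteins, and the unfolded protein response is known to be active for a time when myoblasts differentiate.

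The promoter sequences of the 10 genes are shown first because several hold these motifs. The genes were chosen by name, with earlier results of these data known, and include known targets of the factors that bind these motifs. A high share of matches among them is therefore no independent finding. All 10 matched a RefSeq window (build GRCm38.p6) of 250 bases before to 50 bases after the start site, and both strands were searched. The ERSE motif, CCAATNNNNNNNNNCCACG, was found in 5 of the 10 windows (Calr, Canx, Hsp90b1, Hspa5 and Pdia6) and in 39 of all 32851 windows, or 0.119%. The ERSE-II motif, ATTGGNCCACG, was found in the window of Herpud1 and in 12 of all windows, or 0.0365%. The letters CCACG, which both motifs contain, were found in 8 of the 10 windows and in 32.8% of all windows. Pdia3 and Xbp1 held none of these 3 strings in their windows. A match is a description of letters, not evidence of a bound site.

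The 7 ERSE and ERSE-II matches are printed in capitals, each 5′ to 3′ along the strand on which it reads, so that the fixed ends and the gap can be compared.
Hspa5, 65 to 47 bases before the start: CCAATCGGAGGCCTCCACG
Hsp90b1, 212 to 194 bases before the start: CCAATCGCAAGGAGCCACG
Hsp90b1, 107 to 89 bases before the start, opposite strand: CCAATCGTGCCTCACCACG
Calr, 162 to 144 bases before the start, opposite strand: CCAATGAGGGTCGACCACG
Canx, 145 to 127 bases before the start: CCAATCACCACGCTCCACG
Pdia6, 98 to 80 bases before the start: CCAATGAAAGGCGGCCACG
Herpud1, 52 to 42 bases before the start: ATTGGGCCACG

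The full 250 bases before the start are given for Herpud1, which had the largest fold change of the 10 at the authors' scaling, for Hspa5, the most studied target of the pathway, and for Calr, the most abundant of the 10 messages. Capitals mark ERSE in Hspa5 and Calr. In Herpud1 they mark ERSE-II and, upstream of it, TGATGCAA read on the opposite strand (112 to 105 bases before the start). TGATGCAA is a match to TGATGNAA, core letters of the C/EBP-ATF response element that Atf4 binds, a motif searched after the values had been seen. TGATGNAA was found in 3.97% of all windows and, among the 10 genes, in Herpud1 alone.
Herpud1, chr8:94386179-94386428, plus strand: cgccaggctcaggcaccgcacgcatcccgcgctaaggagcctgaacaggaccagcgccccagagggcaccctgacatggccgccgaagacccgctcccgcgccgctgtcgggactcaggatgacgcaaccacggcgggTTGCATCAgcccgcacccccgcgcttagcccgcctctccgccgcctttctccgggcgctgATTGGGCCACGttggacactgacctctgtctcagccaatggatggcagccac
Hspa5, chr2:34771840-34772089, plus strand: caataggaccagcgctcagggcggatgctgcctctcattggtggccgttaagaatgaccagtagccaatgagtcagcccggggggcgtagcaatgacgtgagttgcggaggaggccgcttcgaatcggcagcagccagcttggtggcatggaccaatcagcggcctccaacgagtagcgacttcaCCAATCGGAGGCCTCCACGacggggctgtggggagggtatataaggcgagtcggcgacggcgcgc
Calr, chr8:84846932-84847181, minus strand: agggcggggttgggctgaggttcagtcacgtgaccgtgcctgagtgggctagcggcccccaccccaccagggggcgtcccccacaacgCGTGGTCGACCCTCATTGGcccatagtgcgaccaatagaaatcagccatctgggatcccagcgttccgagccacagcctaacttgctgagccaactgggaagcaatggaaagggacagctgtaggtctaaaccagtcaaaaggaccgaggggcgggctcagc

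**Figure D1:**
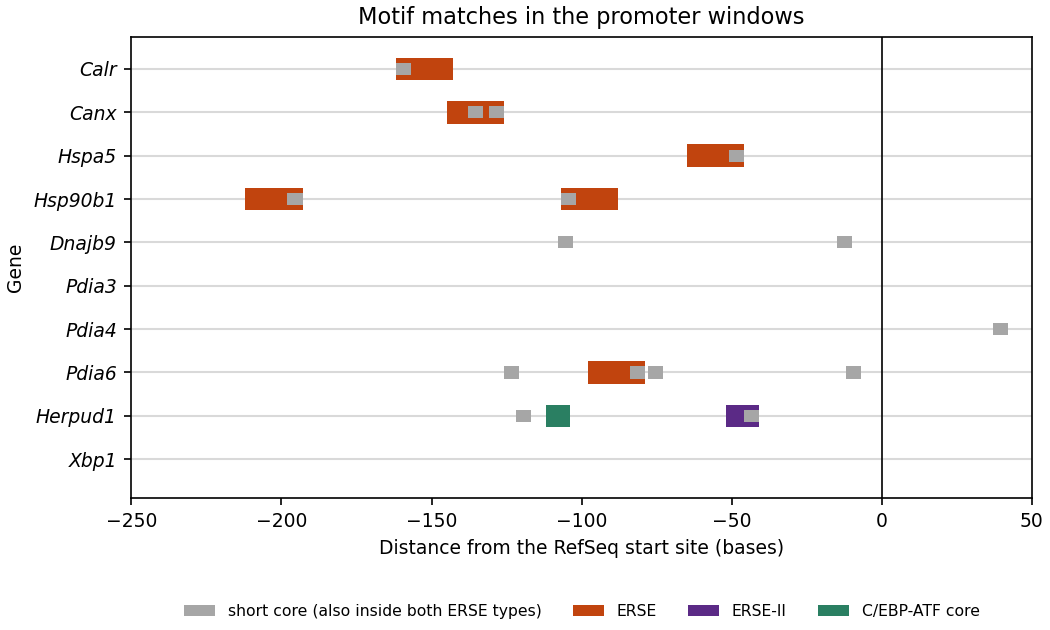
Motif matches in the RefSeq promoter windows of the 10 genes, with the distance from the start site in bases on the horizontal axis and 1 gene per line. Wide bars mark ERSE (5 genes, with 2 matches in Hsp90b1), ERSE-II and the C/EBP-ATF core (both in Herpud1), and short grey bars the core shared by both ERSE types.

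Levels are given in FPKM, the number of fragments on a kilobase of transcript after scaling to library size, which can be compared between genes. Log2 fold changes have siLinc-Yy1 on top, after 1 FPKM was added to both values, and a gene was called higher or lower at 2-fold. Intervals on ratios (exact binomial, 95%) cover counting error only. They take 1 kb of transcript and the depths of about 48.8 M (siLinc-Yy1) and 67.4 M (siNC) fragments that low FPKM values imply if no further scaling was applied. A longer transcript narrows them. They are approximate, because these depths did not account for all of the low values.

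The libraries were checked against their labels. The targeted RNA, the row lincYy1, measured 0.227 FPKM in siLinc-Yy1 and 0.360 FPKM in siNC. These are at most 13 fragments in siLinc-Yy1 and 29 in siNC. Its ratio of 0.629 had an interval of 0.295 to 1.23, so a lower level of the target was not detectable at this depth. All 8 myoblast markers were present, with Myod1 at 67.0 FPKM in siLinc-Yy1 and 62.5 FPKM in siNC. The summed level of the 8 was 2306 FPKM in siLinc-Yy1 and 1479 FPKM in siNC, most of it Vim (1366 FPKM in siLinc-Yy1 and 749 FPKM in siNC) and Des (487 FPKM in siLinc-Yy1 and 322 FPKM in siNC), while Cdh15 was at 99.0 FPKM in siLinc-Yy1 and 98.4 FPKM in siNC. The 8 myotube markers summed to 207 FPKM in siLinc-Yy1 and 163 FPKM in siNC, but Myog, Myh3 and Mybph had the lower value in siLinc-Yy1. The part of these markers in the results below was not tested. Of 10 markers of other cell types in the table, 8 were below 1 FPKM in both libraries, Ptprc, Pecam1 and Epcam among them. The exceptions were Tubb3 and Cd68.

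Most of the 10 messages were abundant, and 8 of 10 had a higher value in siLinc-Yy1 than in siNC, where 45.4% of all 11792 rows with a mean of at least 1 FPKM did. All 10 passed that filter. None reached 2-fold in either direction, against a background of 1.39% of rows higher and 0.178% lower. At 1.5-fold 2 were higher, Herpud1 and Calr, and none lower, against 3.28% and 0.517% of all rows. The median log2 fold change of the 10 was 0.28, beside -0.02 for all rows. When siLinc-Yy1 was rescaled to the same summed FPKM as siNC, which moved the median of all rows by -0.28, the median of the 10 was -0.04. Then 4 of 10 genes, Calr, Hsp90b1, Pdia6 and Herpud1, stayed above 0, where 8.64% of all rows did. Of these, Hsp90b1 (0.007) and Pdia6 (0.008) were at about 0, as was Pdia3 on the other side (-0.005), so the count rests in part on differences within counting error. Dnajb9 was then farthest from 0, at -0.58, with Herpud1 at 0.50 and Calr at 0.40, all short of 1.5-fold. The direction of Canx, Pdia4, Hspa5 and Pdia3 turns with the scaling.

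Fold change grew with the level of a message in these libraries, so each gene was also set against rows of its own level. By band of mean level, the median was -0.09 for rows of 5 to 10 FPKM, 0.15 for rows of 50 to 100 FPKM, 0.29 for rows of 100 to 200 FPKM, 0.46 for rows of 200 to 400 FPKM and 0.73 for rows of 400 to 800 FPKM. Less a running median of the rows in order of level, here called the trend, the median of the 10 genes was -0.08, with 3 above 0 and 7 below. Those above were Herpud1, Calr and Pdia6.

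**Figure D2:**
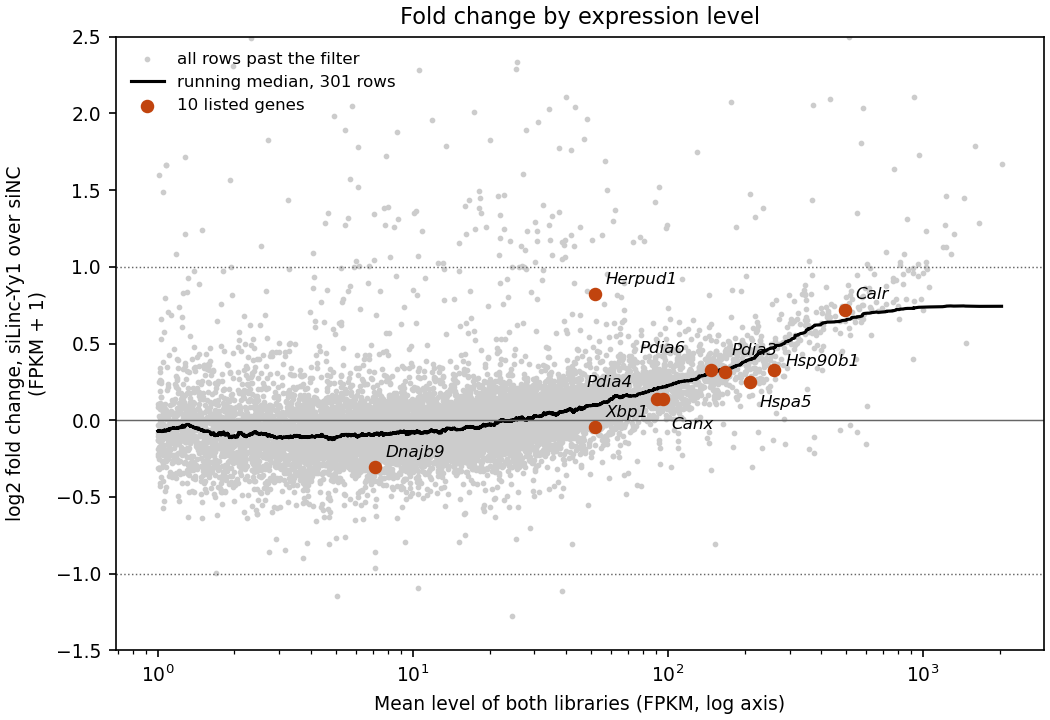
Log2 fold change (siLinc-Yy1 over siNC, 1 FPKM added) against the mean FPKM of both libraries on a log axis, with 1 grey point per row, the running median in black, and the 10 genes in orange. Dotted lines mark 2-fold, and 29 rows lie outside the plotted range. Herpud1 lies 0.72 above the line and the other 9 genes between -0.22 and 0.07 of it.

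The glycoprotein lectins differed in level and in fold change. Calr, the soluble lectin, on chromosome 8 from 87365987 to 87370830 (mm9, as are all gene positions below), measured 614 FPKM in siLinc-Yy1 and 372 FPKM in siNC. Its ratio was 1.65 (interval 1.62 to 1.68). It was the most abundant of the 10 in both libraries and made up 34.1% of their summed FPKM in siLinc-Yy1 and 27.6% in siNC. At its level such a difference was usual: of 83 rows of 400 to 800 FPKM, 45 had a higher log2 fold change than the 0.72 of Calr, and less the trend it stood at 0.07. Canx, the membrane-bound lectin (chromosome 11, 50107459 to 50139175), measured 100.5 FPKM in siLinc-Yy1 and 91.4 FPKM in siNC, a ratio of 1.10 (1.06 to 1.14) and -0.08 less the trend. Within a library, where scaling has no part, there was 6.11 times as much Calr as Canx message per length in siLinc-Yy1 and 4.07 times in siNC. The trend stood at 0.65 at the level of Calr and at 0.22 at that of Canx. This ratio, and those between other genes of unlike level below, are therefore not free of the trend.

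The Hsp70 and Hsp90 of the compartment kept nearly the same proportion to each other. Hspa5, on chromosome 2 from 34627610 to 34632049, measured 227 FPKM in siLinc-Yy1 and 191 FPKM in siNC, a ratio of 1.19 (1.16 to 1.22). Hsp90b1, on chromosome 10 from 86153586 to 86168189, measured 289 FPKM in siLinc-Yy1 and 230.2 FPKM in siNC, a ratio of 1.26 (1.23 to 1.29). Hspa5 over Hsp90b1 was 0.784 in siLinc-Yy1 and 0.830 in siNC. Both lay below most rows of their own level. Of 175 rows of 200 to 400 FPKM, 155 had a higher log2 fold change than Hspa5 and 135 a higher one than Hsp90b1, and less the trend the 2 genes stood at -0.15 and -0.14.

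Dnajb9 (ERdj4), the J-protein that is a standard target of spliced Xbp1, was scarce and had the lowest fold change of the 10. It lies on chromosome 12 from 45306884 to 45311055 and measured 6.28 FPKM in siLinc-Yy1 and 8.01 FPKM in siNC. The ratio was 0.785 (0.680 to 0.905), a log2 fold change of -0.31, of -0.22 less the trend and of -0.58 under equal summed FPKM. Of 2132 rows of 5 to 10 FPKM, 1981 had a higher log2 fold change. For each Hspa5 message there were 0.0277 of Dnajb9 per length in siLinc-Yy1 and 0.0419 in siNC. The authors' deposited table did not call Dnajb9, with a q-value of 0.733.

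The 3 disulfide isomerases differed little from rows of their level. Pdia3 (chromosome 2, 121239638 to 121264422) measured 186 FPKM in siLinc-Yy1 and 149 FPKM in siNC, a ratio of 1.25 (1.21 to 1.28) and -0.02 less the trend. Pdia6 (chromosome 12, 17273401 to 17331536) measured 164 FPKM in siLinc-Yy1 and 130.4 FPKM in siNC, a ratio of 1.26 (1.22 to 1.30) and 0.03 less the trend. The ratio of Pdia3 to Pdia6 was 1.13 in siLinc-Yy1 and 1.14 in siNC. Pdia4 (chromosome 6, 47746140 to 47763511) measured 95.3 FPKM in siLinc-Yy1 and 86.7 FPKM in siNC, a ratio of 1.10 (1.06 to 1.14) and -0.07 less the trend. The row of Pdia6 shares its locus with Atp6v1c2, at 0.151 FPKM in siLinc-Yy1 and 0.182 FPKM in siNC, and that of Pdia4 contains Mir704, listed at 0 in both. How the authors assigned reads where rows overlap is not known here, so these values are uncertain to that extent.

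Herpud1 stood farthest from its level. On chromosome 8 from 96910400 to 96919258, it measured 66.3 FPKM in siLinc-Yy1 and 37.1 FPKM in siNC, a ratio of 1.79 (1.70 to 1.88). Its log2 fold change was 0.82, and 0.72 less the trend, and of 1020 rows of 50 to 100 FPKM, 15 had a higher one. Ranked by FPKM among all rows, Herpud1 was at place 1342 in siLinc-Yy1 and at place 2397 in siNC. It was the single gene of the 10 called in the authors' deposited table (p-value 5.34e-06, q-value 0.000713), where 1.29% of the 14366 rows with status OK were called higher and 0.327% lower. That test compares this pair of libraries and has no replicate behind it. For each Hspa5 message there were 0.292 of Herpud1 per length in siLinc-Yy1 and 0.194 in siNC.

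Xbp1, the factor whose message Ire1 splices, measured 51.1 FPKM in siLinc-Yy1 and 52.8 FPKM in siNC. It lies on chromosome 11 from 5420970 to 5425875. The ratio of 0.969 had an interval of 0.920 to 1.02, so a difference was not detectable at the authors' scaling. Under equal summed FPKM, a rescaling that would shift the interval as well, the log2 fold change was -0.36. Of 1020 rows of its level, 956 had a higher log2 fold change, and less the trend it stood at -0.14. Gene-level values do not separate spliced from unspliced Xbp1.

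The order of the 10 levels was the same in both libraries but for 1 exchange. From the top it ran Calr, Hsp90b1, Hspa5, Pdia3, Pdia6, Canx and Pdia4, with Dnajb9 last. Herpud1 came before Xbp1 in siLinc-Yy1, at 1.30 times its level, and after it in siNC, at 0.703 times. The closest neighbours were Canx and Pdia4, 1.05 times apart in both libraries. With 1 library each, no spread is available to set against these steps. The 10 together made up 0.394% of the summed FPKM of all rows in siLinc-Yy1 and 0.369% in siNC.

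**Figure D3:**
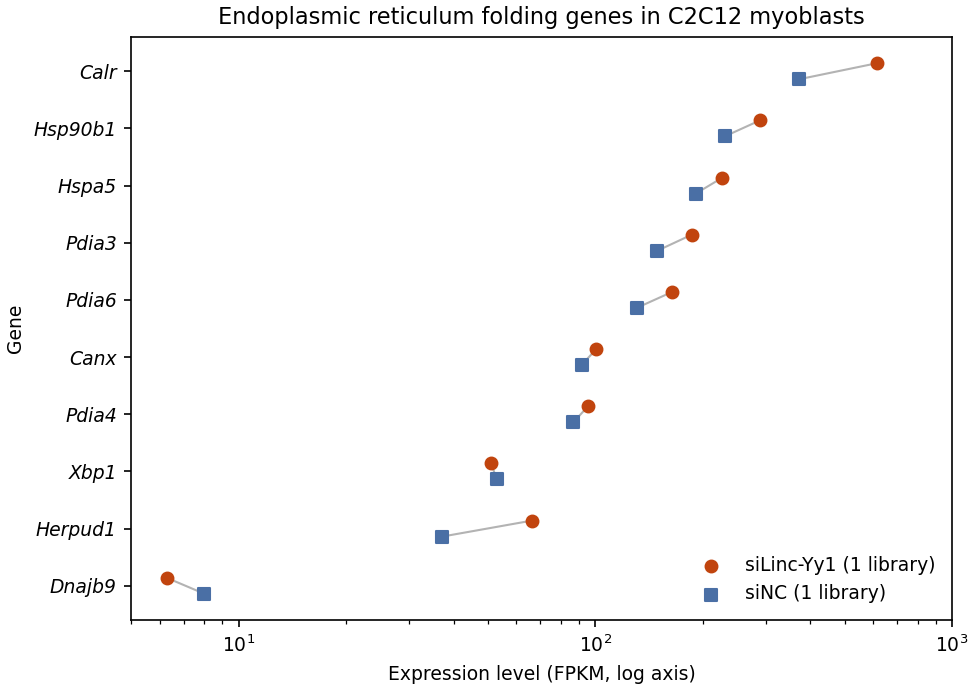
Level of each of the 10 genes in the siLinc-Yy1 library (orange circles, upper of each pair) and the siNC library (blue squares, lower), in FPKM on a log axis, with 1 library per condition. Levels run from 6.28 FPKM (Dnajb9) to 614 FPKM (Calr) in siLinc-Yy1, and the points of Herpud1 and Calr lie farthest apart.

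Wider lists of the same machinery placed the 10 genes among their partners. As background for each list below, 45.4% of all rows were above 0. At 1.5-fold, 3.28% of all rows were higher and 0.517% lower. In the Hsp70 and Hsp90 cycle, 7 of 15 genes were above 0 and 8 below, none past 1.5-fold, with a median of -0.024, beside -0.021 for all rows. The cochaperone Manf, which binds Hspa5, measured 80.2 FPKM in siLinc-Yy1 and 60.8 FPKM in siNC. The isomerase and oxidase list had a median of 0.06, with 13 of 21 measured genes above 0 and none past 1.5-fold. Its largest differences were in Sep15 (173 FPKM in siLinc-Yy1 and 118 FPKM in siNC), a selenoprotein that binds the glucosyltransferase Uggt, and P4hb (377 FPKM in siLinc-Yy1 and 266 FPKM in siNC), the founding isomerase. Txndc5, another isomerase, measured 157 FPKM in siLinc-Yy1 and 124 FPKM in siNC.

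Of the lectin and N-glycan trimming list, 6 of 14 measured genes were above 0 and 8 below, with a median of -0.04, and Calr was the one gene past 1.5-fold. Prkcsh, a subunit of glucosidase II, measured 87.5 FPKM in siLinc-Yy1 and 71.0 FPKM in siNC. Calr3, a second calreticulin gene, was barely measured, at 0.952 FPKM in siLinc-Yy1 and 1.49 FPKM in siNC. In the degradation list 14 of 23 measured genes were above 0, with a median of 0.06. Herpud1 alone passed 1.5-fold there, and the next highest was Aup1, a recruiter of ubiquitin enzymes (86.8 FPKM in siLinc-Yy1 and 71.5 FPKM in siNC). The lectin Erlec1 measured 8.22 FPKM in siLinc-Yy1 and 10.3 FPKM in siNC.

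Among 16 sensors and their factors, 10 were above 0, 2 passed 1.5-fold, and the median was 0.06. The 2 were Atf4, at 249 FPKM in siLinc-Yy1 and 138 FPKM in siNC, and Ddit3 (CHOP), at 83.4 FPKM in siLinc-Yy1 and 47.5 FPKM in siNC. Nfe2l1, which induces proteasome genes, measured 93.2 FPKM in siLinc-Yy1 and 63.2 FPKM in siNC. The sensors themselves were named for their role after their values were seen. Ern1 measured 6.66 FPKM in siLinc-Yy1 and 6.95 FPKM in siNC, Atf6 16.0 FPKM in siLinc-Yy1 and 15.7 FPKM in siNC, and Eif2ak3 6.93 FPKM in siLinc-Yy1 and 9.25 FPKM in siNC. Collagen folding genes had 16 of 19 above 0 and a median of 0.11, with the collagen chaperone Serpinh1 at 451 FPKM in siLinc-Yy1 and 302 FPKM in siNC. P4ha3, a prolyl hydroxylase subunit, measured 16.3 FPKM in siLinc-Yy1 and 13.1 FPKM in siNC, and Leprel2 7.58 FPKM in siLinc-Yy1 and 6.10 FPKM in siNC. Translocon, signal peptidase and oligosaccharyltransferase genes had 20 of 27 above 0 and a median of 0.13. Their largest differences were in Ssr3, of the translocon-associated complex (123 FPKM in siLinc-Yy1 and 90.2 FPKM in siNC), the channel subunit Sec61g (102 FPKM in siLinc-Yy1 and 76.0 FPKM in siNC) and Ddost, of the oligosaccharyltransferase (136 FPKM in siLinc-Yy1 and 104 FPKM in siNC). No gene of these 2 lists passed 1.5-fold. Less the trend, the sensor list had a median of 0.085, with 12 of 16 genes above the trend. The other 6 list medians lay between -0.07 and 0.02. Above the trend were 9 of 19 collagen folding genes and 13 of 27 translocon, signal peptidase and oligosaccharyltransferase genes. So were 13 of 23 degradation genes and 8 of 21 isomerase and oxidase genes. Under equal summed FPKM all 7 medians were below 0.

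Beside these, 20 targets of Atf4 and CHOP and 31 heat shock proteins of the cytosol and mitochondria were taken. Of the Atf4 and CHOP targets 18 of 19 measured genes were above 0, where 45.4% of all rows were. In this list 11 genes passed 1.5-fold and 3 passed 2-fold, against 3.28% and 1.39% of all rows higher. The 3 were Chac1 (70.2 FPKM in siLinc-Yy1 and 16.3 FPKM in siNC), Trib3 (28.4 FPKM in siLinc-Yy1 and 6.29 FPKM in siNC) and Aldh1l2 (14.5 FPKM in siLinc-Yy1 and 6.40 FPKM in siNC). Their median log2 fold change was 0.67 and 0.52 less the trend, beside 0.28 and -0.08 for the 10 folding genes, and the difference between the lists was not tested. The authors' deposited table called 9 of the targets higher, beside 1.29% of the 14366 rows with status OK. Herpud1, at 0.82 and 0.72, was the one folding gene above both medians of the Atf4 and CHOP list. That list counts Shmt2 (125 FPKM in siLinc-Yy1 and 75.2 FPKM in siNC), for which the authors give a log2 fold change of 0. With rows of status OK alone the median of the list was 0.64. The heat shock list had a median of 0.15 and of -0.05 less the trend. Of its 31 genes, 23 were above 0 and 11 above the trend. At 1.5-fold 3 were higher and 2 lower, against 3.28% and 0.517% of all rows. The 2 lower, named after their values were seen, were Hspa1a and Hspa1b, near-identical copies between which reads cannot be divided with certainty. Hspa1a measured 12.5 FPKM in siLinc-Yy1 and 19.5 FPKM in siNC, and Hspa1b 16.3 FPKM in siLinc-Yy1 and 25.7 FPKM in siNC. The authors' deposited table called both lower and no other gene of the heat shock list, where 0.327% of rows with status OK were called lower. The most abundant gene of that list, Hsp90ab1, measured 1155 FPKM in siLinc-Yy1 and 587 FPKM in siNC. Hspb1 measured 674 FPKM in siLinc-Yy1 and 375 FPKM in siNC, and Hspa8 961 FPKM in siLinc-Yy1 and 562 FPKM in siNC.

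**Figure D4:**
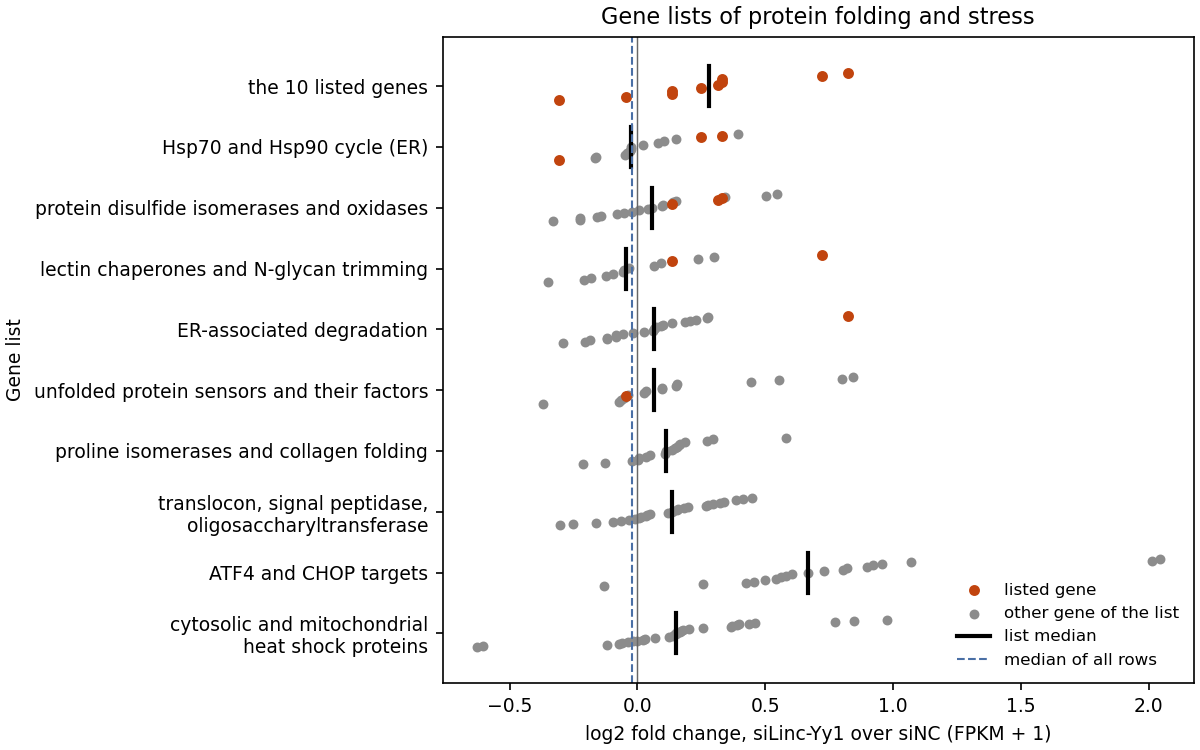
Log2 fold change (siLinc-Yy1 over siNC, 1 FPKM added) for each gene with a mean of at least 1 FPKM, by gene list. Orange points are the 10 folding genes, grey points the other genes of a list, black ticks the list medians and the dashed line the median of all rows (-0.02). The tick of the Atf4 and CHOP targets is at 0.67 and those of the other lists lie between -0.04 and 0.28.

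The 3 folding genes farthest from the trend were Herpud1, Dnajb9 and Hspa5, and the rows nearest to each in level and fold change are named by distance alone, which over 2 libraries is likeness in 2 numbers. They were Snord16a, Ccl5 and Hist1h1c for Herpud1 (distance 0.108 to 0.178 log2 units), 3110009E18Rik, Pkp2 and Dcun1d1 for Dnajb9 (0.0113 to 0.0170), and Col3a1, Rps27a and Mgp for Hspa5 (0.0128 to 0.0422). Nearest to Hspa5, Col3a1 measured 226 FPKM in siLinc-Yy1 and 189 FPKM in siNC.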

How the data were processed

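Poly(A)-selected RNA of C2C12 myoblasts was sequenced, with 1 library per condition (siLinc-Yy1 and siNC). The authors deposited FPKM values per gene with the p-value, q-value and log2 fold change of their own test in a Cuffdiff table, per the file headers. Its 2 copies are identical and 1 was used. The first FPKM column was taken as siNC and the second as siLinc-Yy1, the order of the conditions in the header. Cuffdiff 2.0.4, TopHat2 2.0.4, Cufflinks 2.1.1 and the build mm9 are named in the submitters' processing notes. No source used here gives the annotation, the scaling between libraries or the use of strand. Start positions, which count from 0 in the table, were raised by 1.

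With Python 3.11.15, numpy 2.4.6, pandas 2.3.3 and scipy 1.17.1, log2 fold changes were computed with 1 FPKM added and described by size among rows with a mean of at least 1 FPKM. No p-value was computed. The trend with level is a running median over 301 rows. These steps were tried on simulated data with counting noise alone and 200 genes changed past 2-fold. None of the 10 genes differed that much, so recovery of differences of their size was not tested. Depth was read from the steps of low FPKM values of single-exon receptor genes. Within 0.02 fragments, 49.5% of 521 such rows in siLinc-Yy1 and 58.7% of 618 in siNC were whole, so no count test was run. The intervals on ratios use the same depths and are approximate for that reason. Promoter sequences are from RefSeq (GRCm38.p6), and no coordinate was carried between builds. Of a wider list, the 3 genes of largest absolute fold change were named, members of the 10 included, and up to 3 rows nearest in level and fold change for 3 of the 10. Genes and lists were chosen with earlier results of these data known. Also tried were 0.1 and 5 FPKM as the amount added, no filter or one of 5 FPKM, equal summed FPKM, centring on the median, running medians of 301 and 101 rows, a fold of 1.5, the authors' calls and rows with status OK.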

Additional observations from a re-analysis of the deposited data

How the results depend on the processing

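No paired analysis was possible because each condition has 1 library, and for the same reason no replicate could be left out. The count of the 10 genes past 2-fold was 0 in each direction and stayed 0 under pseudocounts of 0.1 and 5 FPKM, both filters, rescaling, centring, both running medians and rows with status OK; at a fold of 1.5 it was 2 higher, and 1 was higher by the authors' deposited calls. The number of the 10 above 0, 8 as reported, became 4 under rescaling to equal summed FPKM and 3 with either running median (wide or narrow window) subtracted. Their median, 0.281, became -0.040, -0.077 (wide) and -0.090 (narrow) under the same settings. For single genes, rescaling moved all 10 by more than counting error and turned the sign of 4, and each running median moved 9 and turned the sign of 5; the pseudocounts, filters, centring and rows with status OK moved none of the 10. Rows past 2-fold in the whole table, 164 higher and 21 lower, became 109 and 7 (5 FPKM added), 93 and 38 (rescaled) and 387 and 61 (fold of 1.5). The lower ones were 39 without the filter, 7 at a mean of at least 5 FPKM and 47 by the authors' calls. The filters also change which rows are counted, and the cause of these changes was not tested. At the depth of these libraries counting error is small for 9 of the 10 genes and widest for Dnajb9, with 307 fragments per kb in siLinc-Yy1 and 540 in siNC.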

Other observations

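Genes outside the 10 that carry the same promoter letters were listed after the values had been seen. Of all rows in the table, 39 matched a RefSeq window with ERSE or ERSE-II, and 33 of these were not among the 10 folding genes. Of the 33, 15 reached a mean of 1 FPKM, 9 above 0 and 6 below, where 45.4% of all rows were above 0. The median log2 fold change of the 15 was 0.03, beside -0.02 for all rows. They include folding and quality control genes: Creld2, at 66.7 FPKM in siLinc-Yy1 and 63.0 FPKM in siNC, Dnajb11, at 53.4 FPKM in siLinc-Yy1 and 54.4 FPKM in siNC, and Dnajc3, at 16.1 FPKM in siLinc-Yy1 and 18.2 FPKM in siNC. Syvn1, the ligase of the degradation complex that Herpud1 serves, measured 24.8 FPKM in siLinc-Yy1 and 24.3 FPKM in siNC. The largest log2 fold change of the 15, 0.32, was that of Krtcap2, from the translocon and oligosaccharyltransferase list. Krtcap2 measured 137 FPKM in siLinc-Yy1 and 109.6 FPKM in siNC. All the genes named here were picked after their values were seen.

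Of 18 Atf4 and CHOP targets with a RefSeq window, 7 held TGATGNAA, beside 3.97% of all windows, and none held ERSE or ERSE-II. The list was taken as targets of factors that include Atf4, which binds this element, so the count is no independent finding. TGATGNAA was also in 2 of 16 windows of the degradation list, Herpud1 included, and 1 of 12 of the Hsp70 and Hsp90 cycle. It was in 1 of 20 of the isomerase list and 1 of 25 of the heat shock list, and in none of the remaining wider lists. Among the 10 folding genes Herpud1 was the one with both kinds of match, ERSE-II and TGATGNAA. What the letters have to do with its level was not tested.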
